A study of Mus musculus with 9 samples.

Results

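The transcripts described here come from 10 genes of fat cells and of fat synthesis, measured in the gastrocnemius, a calf muscle, of 9 mice of 6 genotypes with 1 Affymetrix U74Av2 array each. The genes are set by symbol, and every probe set annotated to them was taken, which gave 12 probe sets of 12488 on the array. Of the 10 genes, 6 serve fat storage and the fat cell (Adipoq, Fabp4, Retn, Lipe, Pck1 and Cidec) and 4 encode enzymes of fatty acid synthesis (Scd1, Fasn, Acly and Me1). They were read as a gauge of the fat carried along with the muscle. After the filter on dim probe sets 11 of the 12 remained, with at least 1 for each gene, and the probe set that failed was 1 of the 3 for Scd1.

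The wild-type mice (n = 2, both aged 7 weeks, mouse 1 female and mouse 2 male) had a mixed C57Bl/DBA2/129OLA-Ev background. All other mice were male. The mdx mice (n = 2, aged 15 and 13 weeks for mouse 1 and 2) carry a mutation in Dmd, the gene of dystrophin, which ties the fibre's cytoskeleton to its membrane. The hDMD mouse (n = 1, 11 weeks) carries the full-length human gene, and the hDMD x mdx mice (n = 2, 24 and 10 weeks) carry it on the mutant background. The mdx x utrn-/- mouse (n = 1, 5 weeks) lacks dystrophin and utrophin, a related protein, and the hDMD x mdx x utrn-/- mouse (n = 1, 9 weeks) has the human gene added. For the 7 mice that were not wild-type, strain background is not given in the sources used here, nor are the transgenic line and its copy number. The replicates of a genotype are individual mice. Age differed between genotypes and cannot be told apart from genotype where groups differ in it.

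White fat cells store triglyceride in a single droplet and release it as fatty acids when hormones activate lipolysis. They also secrete adiponectin and resistin into the blood. New fatty acids are made in the cytosol from citrate, which is split into acetyl-CoA, built into palmitate by fatty acid synthase with NADPH as reductant, and then desaturated. Skeletal muscle fibres burn fatty acids more than they make them, and fat cells lie between muscle bundles and around the muscle. Dystrophic muscle can gain fat between its fibres as it is replaced, although mdx mice are known to do so far less than patients.

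Each level is log2(intensity + 16) of a probe set after quantile normalisation between arrays, with a floor at 4, so that a difference of 1 is a doubling for a bright gene and understates the change of a dim one. Fast muscle genes marked the tissue as labelled: the summed normalised intensity of 14 of them lay between 26773 and 30706 on the 9 arrays. Quantile normalisation gives the brightest ranks the same values on every array, so the narrowness of that range is partly set by it. The 9 spike-in probe sets had medians of 206 to 225 on 3 bright arrays (wild-type 1, hDMD x mdx 1 and mdx 2) and 28.5 to 42.3 on the 6 dim ones. Actin ratios of the 3′ to the 5′ probe set, a sign of RNA integrity, were 1.20 to 1.87 on the bright and 0.669 to 0.908 on the dim arrays. Wild-type, mdx and hDMD x mdx each had 1 bright and 1 dim array, so values of each of the array classes stand beside the pooled ones where they bear on a result. In whole muscle, fewer fat cells, less of a transcript per fat cell and a change in other cells that make it cannot be told apart.

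Adiponectin (Adipoq, Entrez gene 11450), a hormone made by fat cells, differed widely between the wild-type mice. Its level was 6.64 in wild-type 1 and 9.70 in wild-type 2, 7.07 in mdx 1 and 8.64 in mdx 2, and 8.68 in hDMD x mdx 1 and 7.71 in hDMD x mdx 2. It was 8.58 in hDMD, 8.57 in mdx x utrn-/- and 7.23 in hDMD x mdx x utrn-/-. The lowest and the highest of the 9 arrays were thus both wild-type, and every other genotype lay between them.

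Pck1 (Entrez 18534), which makes the glycerol backbone for triglyceride in fat cells and glucose in liver, had the widest span. It read 4.52 in wild-type 1 and 9.53 in wild-type 2, 5.56 and 7.50 in mdx 1 and 2, and 7.69 and 6.16 in hDMD x mdx 1 and 2. The hDMD mouse was at 7.55, mdx x utrn-/- at 4.67 and hDMD x mdx x utrn-/- at 5.78. Here the mdx x utrn-/- mouse was second lowest, although its Adipoq was near that of the hDMD mouse.

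Resistin (Retn, Entrez 57264), a hormone that mouse fat cells secrete, was at 4.31 in wild-type 1 and 9.07 in wild-type 2. The mdx mice were at 6.30 and 6.44, the hDMD x mdx mice at 6.71 and 7.01, and hDMD at 7.53. It reached 9.00 in mdx x utrn-/- but 4.33 in hDMD x mdx x utrn-/-. Both utrophin-deficient arrays were dim, and they lay near the opposite ends of the range.

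The remaining storage genes had the same top array. Cidec (Entrez 14311), a protein of the lipid droplet surface that lets droplets fuse, ranged from 4.41 in wild-type 1 to 8.17 in wild-type 2. Lipe (Entrez 16890), hormone-sensitive lipase, ranged from 5.49 in mdx 1 to 8.75 in wild-type 2. Fabp4 (Entrez 11770), the fatty acid carrier of fat cells that macrophages also make, ranged from 6.07 in hDMD x mdx x utrn-/- to 9.37 in wild-type 2. All 6 storage genes were therefore highest in wild-type 2, and 4 of them were lowest in wild-type 1, Lipe and Fabp4 being the exceptions.

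**Figure D1:**
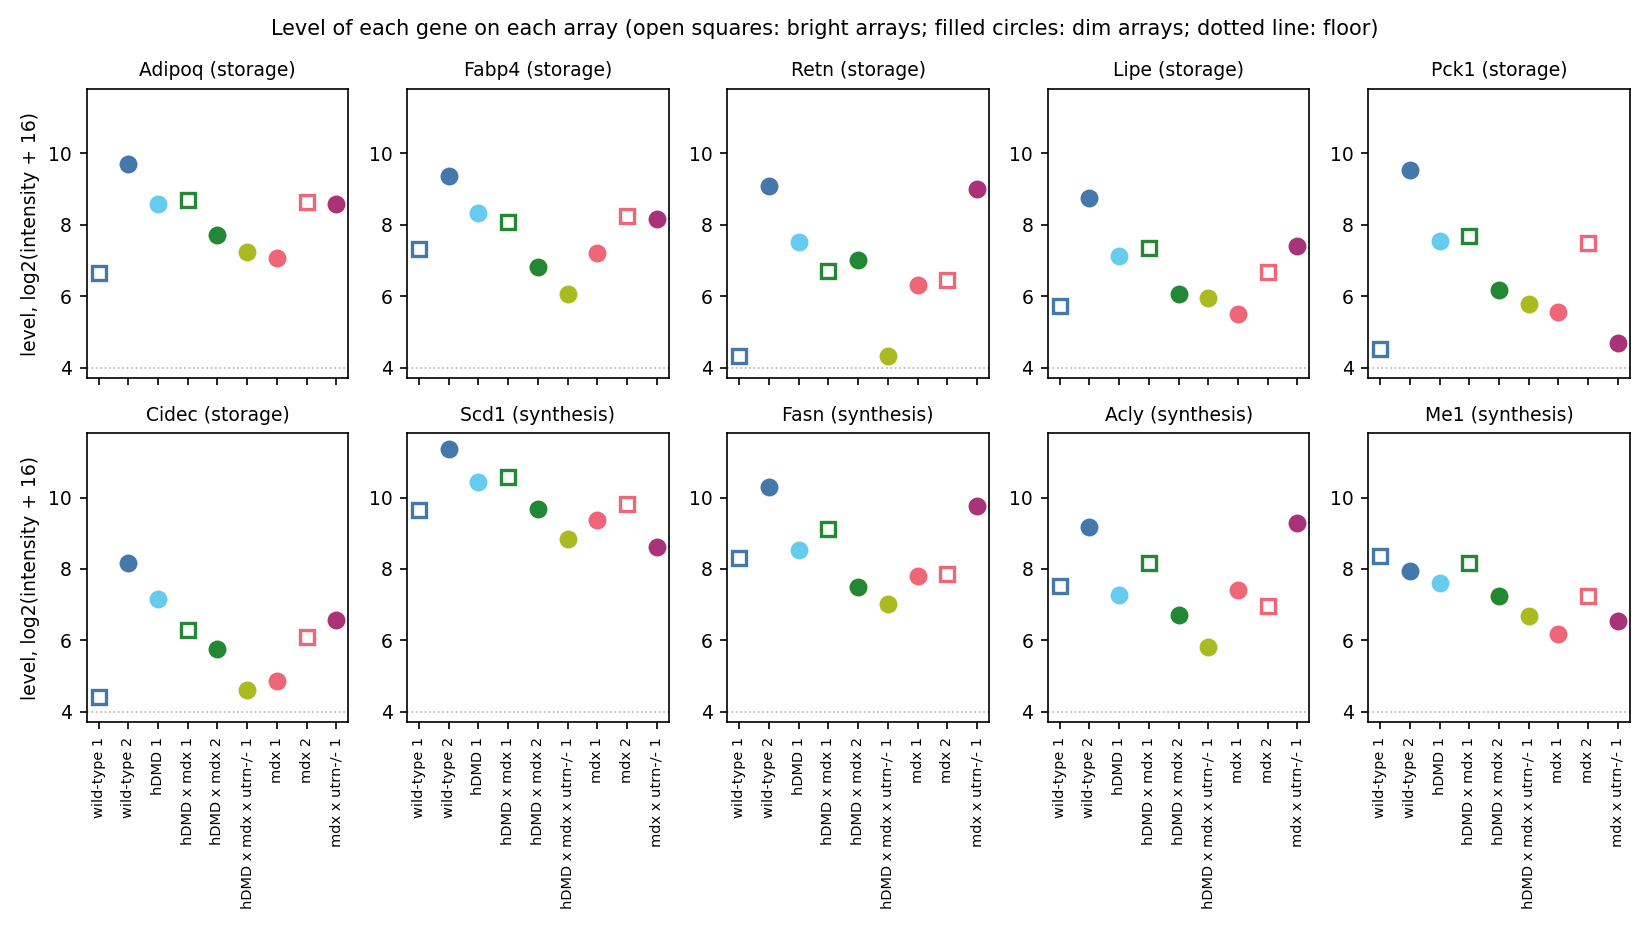
Level of each of the 10 genes on each of the 9 arrays, as log2(intensity + 16), 1 panel a gene and 1 point an array. Wild-type 2 is the highest array in all 6 storage panels, at 9.70 for Adipoq and 9.53 for Pck1, and Me1 is the panel in which wild-type 1 is highest.

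Stearoyl-CoA desaturase 1 (Scd1, Entrez 20249), which puts the double bond into new saturated fatty acids, was the synthesis enzyme with several probe sets. On the brightest of them it was at 9.66 and 11.35 in wild-type 1 and 2, 9.37 and 9.81 in mdx 1 and 2, and 10.59 and 9.68 in hDMD x mdx 1 and 2. The hDMD mouse was at 10.43, hDMD x mdx x utrn-/- at 8.84 and mdx x utrn-/- at 8.62, the lowest. A further probe set ranged from 7.49 in mdx x utrn-/- to 10.92 in wild-type 2, and the one that failed the filter stayed between 4.0 and 4.86.

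Fatty acid synthase (Fasn, Entrez 14104), which builds palmitate, was at 8.32 and 10.30 in wild-type 1 and 2. It was at 7.81 and 7.85 in mdx 1 and 2, at 9.12 and 7.50 in hDMD x mdx 1 and 2, and at 8.52 in hDMD. Of the utrophin-deficient mice, the one without the human gene was at 9.77 and the one with it at 7.03. The mdx pair was the closest of the 3 pairs for this gene.

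ATP citrate lyase (Acly, Entrez 104112), which splits citrate into acetyl-CoA, was the only member whose top array was mdx x utrn-/-, at 9.30. It was at 7.52 and 9.16 in wild-type 1 and 2, 7.42 and 6.95 in mdx 1 and 2, and 8.16 and 6.71 in hDMD x mdx 1 and 2. The hDMD mouse was at 7.26 and hDMD x mdx x utrn-/- at 5.82, the lowest.

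Cytosolic malic enzyme (Me1, Entrez 17436), which makes NADPH, differed from the other members in its top array. Its levels were 8.36 and 7.94 in wild-type 1 and 2, 6.17 and 7.24 in mdx 1 and 2, and 8.17 and 7.23 in hDMD x mdx 1 and 2. The hDMD mouse was at 7.62, hDMD x mdx x utrn-/- at 6.69 and mdx x utrn-/- at 6.53. Me1 was the only member that was highest in wild-type 1, the mouse in which Adipoq, Pck1, Retn and Cidec were lowest.

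Most members differed more between the wild-type mice than the bulk of the other transcripts on the array. Between the wild-type mice, Pck1 (5.01 higher in mouse 2) and Retn (4.76) had the largest and second largest difference in size of all 7453 probe sets kept. Cidec (3.77) ranked 12, Adipoq (3.06) ranked 30 and Lipe (3.04) ranked 37. In wild-type 1, Pck1, Retn and Cidec lay near the floor, so the sizes of their differences depend on the added constant. The synthesis enzymes differed less, Fasn by 1.98, Scd1 by 1.69 and Acly by 1.65, all higher in wild-type 2, and Me1 by -0.42. The median over the 6 storage genes was 3.42 and over the 4 enzymes 1.67, against -0.03 over all probe sets kept. Wild-type 1 was female and its array bright, wild-type 2 male and its array dim, so sex, brightness and mouse cannot be told apart in this pair.

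In the other pairs the order of the arrays turned, and several members differed little: of the 7453 probe sets, Fasn ranked 7046 and Retn 6160 between the mdx mice, and Retn 4907 between the hDMD x mdx mice. The dim array of mdx was lower than the bright one in all 6 storage genes, with a median of -1.20, and the dim array of hDMD x mdx in 5 of 6, with a median of -1.11. Retn was the exception, at 0.31 higher in the dim array of hDMD x mdx. The synthesis enzymes had medians of -0.24 in mdx and -1.19 in hDMD x mdx. The difference between dim and bright arrays thus had opposite signs in wild-type and in the other genotypes for 5 of the 6 storage genes, and for Retn in wild-type and mdx.

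**Figure D2:**
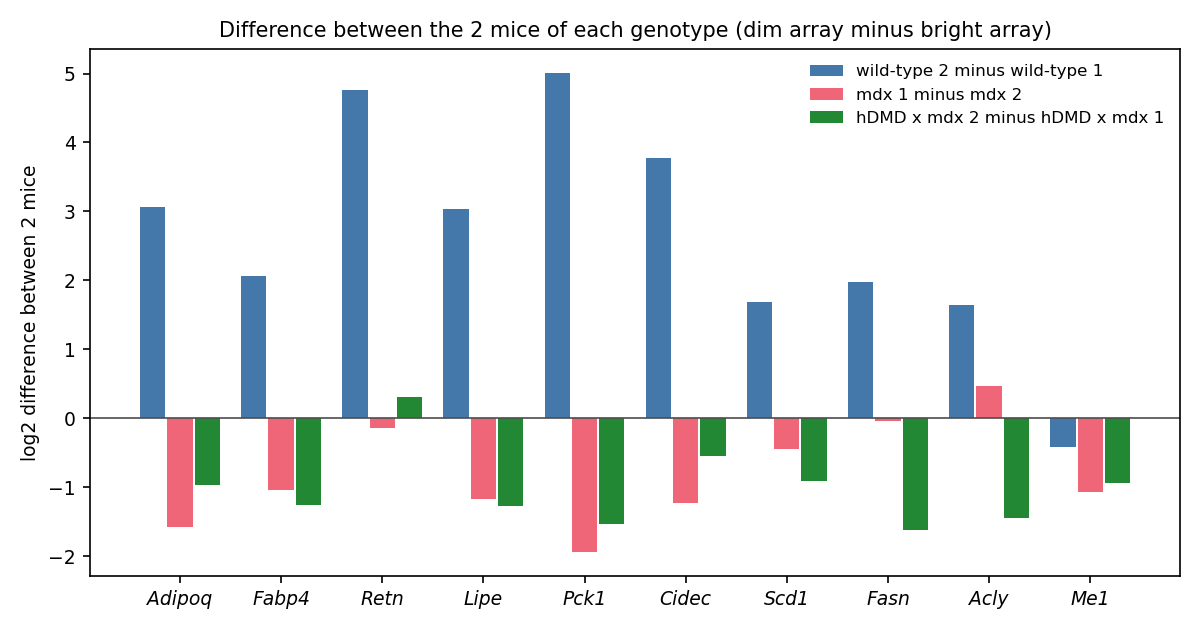
Difference in log2 level between the 2 mice of each genotype for each gene, dim array minus bright array. Bars above 0 are higher in the dim array, and the wild-type bars reach 5.01 for Pck1 and 4.76 for Retn while those of mdx and hDMD x mdx are mostly below 0.

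The mean deviation of each array from the mean over all arrays, taken over the storage genes and over the enzymes, set the arrays in order. For the storage genes it was 2.13 in wild-type 2, 0.74 in hDMD, 0.49 in hDMD x mdx 1, 0.42 in mdx x utrn-/- and 0.29 in mdx 2. It was -0.38 in hDMD x mdx 2, -0.89 in mdx 1, -1.31 in hDMD x mdx x utrn-/- and -1.49 in wild-type 1. Arrays of wild-type, mdx and hDMD x mdx lay on both sides of 0, so no genotype with 2 mice kept to one side.

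For the enzymes the deviation was 1.39 in wild-type 2, 0.71 in hDMD x mdx 1, 0.26 in mdx x utrn-/- and 0.16 in wild-type 1 and hDMD alike. The lowest arrays were hDMD x mdx x utrn-/- at -1.21, mdx 1 at -0.61, hDMD x mdx 2 at -0.52 and mdx 2 at -0.34. Enzymes minus storage genes came to 1.65 in wild-type 1, the largest, and lay between -0.74 in wild-type 2 and 0.28 in mdx 1 on the other 8 arrays. In wild-type 1 none of the 6 storage genes was above its own mean, and of the enzymes only Me1 was.

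The mdx x utrn-/- mouse, at 5 weeks the youngest, had an even mean that hid opposite members. Relative to their own means, Retn was 2.25 higher, Acly 1.71 higher and Fasn 1.3 higher in it. Pck1 deviated by -1.88, Scd1 by -1.19 and Me1 by -0.79, while Adipoq, Fabp4, Lipe and Cidec were 0.44 to 0.67 higher. These are values of 1 mouse and were not tested against the other genotypes.

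**Figure D3:**
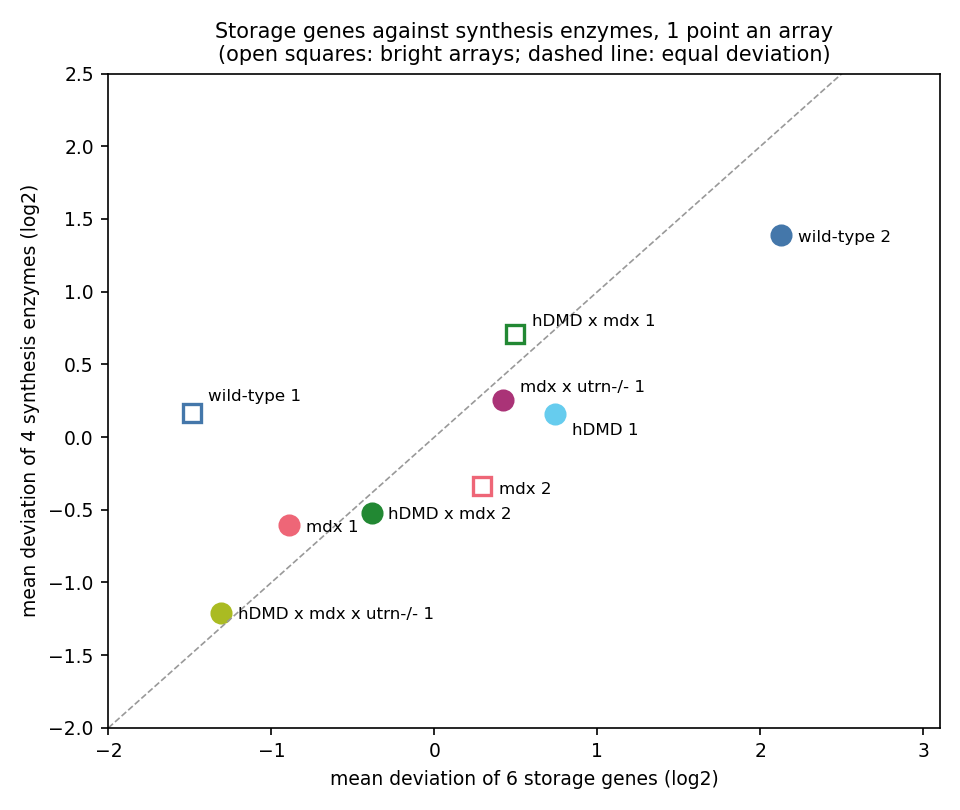
Mean deviation from the mean over arrays (log2) of the 4 synthesis enzymes against that of the 6 storage genes, 1 point an array. Wild-type 2 is at the top right (2.13 and 1.39), hDMD x mdx x utrn-/- at the lower left (-1.31 and -1.21), and wild-type 1 stands off the line of equal deviation at -1.49 and 0.16.

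Each gene was then set against Adipoq over the 9 arrays, with two-sided exact permutation tests over all 362880 pairings and adjustment over the 9 relations. All 5 other storage genes passed with Pearson's r. Cidec had r = 0.955 (adjusted exact p = 0.00124) and Spearman's rho = 0.85 (0.0182). Lipe had r = 0.946 (adjusted exact p = 0.00124) and rho = 0.867 (0.0182). Pck1 had r = 0.802 (adjusted exact p = 0.0165) and rho = 0.883 (0.0182). For Fabp4, r was 0.849 (adjusted exact p = 0.0119) and for Retn 0.819 (0.0165), but their rho of 0.733 and 0.717 did not pass (adjusted exact p = 0.0553 each).

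Among the enzymes only Fasn passed, with r = 0.722 (adjusted exact p = 0.0443), but not by rank, with rho = 0.633 (0.0978). Scd1 had r = 0.621 and rho = 0.75 (adjusted exact p = 0.0971 and 0.0553), and Acly r = 0.598 and rho = 0.333 (0.102 and 0.410). Me1 had the weakest relation, with r = 0.245 and rho = 0.317 (adjusted exact p = 0.520 and 0.410). Whether the enzymes follow Adipoq less than the storage genes do was not tested.

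Unadjusted exact p-values were 0.000152 for Cidec, 0.000276 for Lipe, 0.00398 for Fabp4, 0.00796 for Retn and 0.00914 for Pck1, and for Fasn, Scd1, Acly and Me1 0.0295, 0.0755, 0.0904 and 0.520. Without the 2 arrays farthest from the median of Adipoq, wild-type 1 and mdx 1, r was 0.986 for Fabp4, 0.944 for Lipe, 0.931 for Cidec, 0.777 for Retn and 0.710 for Pck1. In the enzymes it became 0.868 for Fasn, 0.806 for Acly, 0.724 for Scd1 and 0.604 for Me1, and Fasn and Acly then passed (adjusted exact p = 0.0205 and 0.0357, n = 7) while Retn and Pck1 did not (0.0628 and 0.0795). Within the 6 dim arrays r was 0.989 for Lipe, 0.981 for Cidec, 0.922 for Fabp4, 0.904 for Fasn, 0.842 for Retn, 0.769 for Me1, 0.761 for Acly, 0.715 for Pck1 and 0.699 for Scd1. There Lipe and Cidec (adjusted exact p = 0.0188 each) and Fabp4 and Fasn (0.0406 each) passed. By rank, rho over the dim arrays was 0.943 for Lipe and for Cidec, 0.886 for Retn, and 0.829 for Me1 and for Fabp4. For Fasn it was 0.771, for Pck1 0.657, for Scd1 0.6 and for Acly 0.429. The 3 bright arrays were too few for a value. Wild-type 2, the highest array for Adipoq and for the other storage genes, stayed in each of these sets. No relation was computed without it, so how far the values rest on that mouse was not tested.

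Upstream sequence was read for Adipoq, for the storage gene with the highest r with it and for the enzyme that passed. RefSeq windows on build GRCm38.p6 were found for 8 of the 10 genes, Fabp4 and Scd1 being without one. In each window the 250 bases before its transcript start were searched on both strands for 7 motifs. Some genes had more than 1 window. The stretches shown for Fasn and Cidec lie within the annotated gene, before a start that is not its outermost. The CCAAT box, spelled CCAAT, was in windows of Adipoq, Fasn and Me1, that is in 3 of 11 windows of the members, and in 33.8% of all 32851 windows. Matches are in capitals, in either orientation, at chr16:23146286-23146535 (plus strand) for Adipoq and chr11:120824548-120824797 (minus strand) for Fasn, with 3 matches each.
Adipoq: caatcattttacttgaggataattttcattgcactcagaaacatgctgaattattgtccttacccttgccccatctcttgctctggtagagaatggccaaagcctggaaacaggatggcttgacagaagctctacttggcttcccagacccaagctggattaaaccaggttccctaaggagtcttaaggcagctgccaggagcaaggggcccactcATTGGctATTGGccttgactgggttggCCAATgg
Fasn: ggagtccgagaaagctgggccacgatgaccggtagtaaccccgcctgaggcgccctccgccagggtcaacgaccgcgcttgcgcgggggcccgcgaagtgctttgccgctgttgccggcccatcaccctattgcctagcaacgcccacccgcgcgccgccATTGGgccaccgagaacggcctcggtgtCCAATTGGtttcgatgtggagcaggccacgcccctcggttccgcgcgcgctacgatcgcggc
The C/EBP motif, searched as TTGCNNAA after the factor that drives fat cell genes, was in 1 member window and in 9.56% of all windows. It lies at chr6:113434765-113435014 (minus strand) for Cidec, in capitals.
Cidec: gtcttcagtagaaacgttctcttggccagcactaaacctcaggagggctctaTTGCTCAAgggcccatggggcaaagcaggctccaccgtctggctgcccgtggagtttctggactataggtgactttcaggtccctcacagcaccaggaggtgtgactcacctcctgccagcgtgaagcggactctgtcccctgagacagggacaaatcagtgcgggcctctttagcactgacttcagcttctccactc
The E-box CACGTG was in 1 window, of Lipe, against 6.02% of all, and the nuclear receptor site TGACCT in 1, of Acly, against 14.0%. No member window held the DR1 repeat of nuclear receptors (0.0335% of all), the sterol element TCACNCCAC (1.05%) or the TATA box TATAAA (12.4%). These letters describe the windows only.

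The first comparison asked whether the genes followed full-length dystrophin, mouse or human, in 3 arrays without it (mdx and mdx x utrn-/-) against 6 with it. No member passed in limma, where 0.121% of the 7453 probe sets did, and no member had groups that did not overlap, against 1.52% of all probe sets with the arrays lacking dystrophin higher and 1.42% with them lower. Pck1 differed by 1.39 on the 3 bright arrays and by -2.14 on the 6 dim ones. Adipoq was at 8.09 ± 0.89 (SD, n = 3) without and 8.09 ± 1.11 (SD, n = 6) with dystrophin, a difference of 0.01 ± 0.61 (SE). Fasn was at 8.47 ± 1.12 and 8.46 ± 1.17. The array classes had opposite signs for both genes, with 0.99 on bright and -0.48 on dim arrays for Adipoq, and -0.87 and 0.45 for Fasn.

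Mean values of 3 storage genes were higher and of 3 lower where dystrophin was missing (median difference -0.12). Retn differed by 0.75 ± 0.99 (SE), Pck1 by -0.96 ± 0.94, Fabp4 by 0.22 ± 0.60, Lipe by -0.31 ± 0.63 and Cidec by -0.24 ± 0.75. Among the enzymes Acly differed by 0.45 ± 0.67 and Scd1 by -0.82 ± 0.48, with -1.17 ± 0.59 on its next probe set.

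Me1 had the largest difference of the members in size relative to its error. It was at 6.65 ± 0.545 (SD, n = 3) without and 7.67 ± 0.625 (SD, n = 6) with dystrophin, a difference of -1.02 ± 0.38 (SE), with an unadjusted p of 0.0198 and an adjusted p of 0.799 in limma. The 3 bright arrays gave -1.02 and the 6 dim arrays -1.02, and the value was -1.0 ± 0.38 with the storage deviation as a covariate. The mdx 2 mouse, at 7.24, lay above the lowest carrying mice, at 6.69 and 7.23, so the groups overlapped.

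The second comparison set mdx against wild-type (n = 2 each), which differ in mouse dystrophin. They differ also in age (15 and 13 weeks against 7), and wild-type 1 was female while the mdx mice were male. Strain background is not given for mdx. Age, sex and strain cannot be told apart from dystrophin here. All 10 members had lower mean values in mdx, with a median difference of -0.55 over the storage genes and -1.3 over the enzymes, against 0.00 over all probe sets. Of all 7453 probe sets kept, 3723 were lower in mdx. No member passed in limma, where 0% of the probe sets did and 130 had an unadjusted p under 0.05. Groups did not overlap for 3 of the 10, Fasn, Acly and Me1, each lower in mdx, as for 10.7% of all probe sets.

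Of these, Fasn was at 9.31 ± 1.40 (SD) for wild-type and 7.83 ± 0.03 for mdx, a difference of -1.48 ± 0.75 (SE). Acly differed by -1.15 ± 0.68, from 8.34 ± 1.16 in wild-type to 7.19 ± 0.335 in mdx. Me1 differed by -1.44 ± 0.50, from 8.15 ± 0.295 to 6.71 ± 0.76, with an unadjusted p of 0.0245 and an adjusted p of 1.0 in limma. With the storage deviation as a covariate the differences were -1.13 ± 0.53 for Fasn, -0.88 ± 0.57 for Acly, -0.61 ± 0.39 for Scd1 and -1.42 ± 0.57 for Me1. Me1 thus had the value that moved least with that covariate. The slope of the covariate came only from the 3 pairs of mice within a genotype, with 2 residual degrees of freedom. Between dim and bright wild-type arrays Me1 differed by -0.42, where the storage genes had a median of 3.42. In mdx and hDMD x mdx it differed by -1.07 and -0.94, with storage medians of -1.20 and -1.11. Whether Me1 is independent of the fat carried was not tested.

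The differences of the storage genes ran in this comparison from -0.31 ± 1.01 for Adipoq to -1.16 ± 0.99 for Lipe. Their signs turned between the array classes. Adipoq differed by 2.01 on bright and by -2.63 on dim arrays, Pck1 by 2.98 and -3.96, Retn by 2.13 and -2.77, Cidec by 1.68 and -3.33, Lipe by 0.95 and -3.26, and Fabp4 by 0.94 and -2.16. Without wild-type 2 the differences of Pck1, Retn, Adipoq and Cidec were 2.01, 2.06, 1.22 and 1.06, and without wild-type 1 they were -3.0, -2.70, -1.84 and -2.71. Among the enzymes, Me1 kept a lower value in both classes (-1.11 and -1.77), as did Fasn (-0.47 and -2.49) and Acly (-0.57 and -1.74). Scd1 was at 0.15 and -1.98 on its brightest probe set. Its next probe set was lower in mdx in both classes. There mdx 2 was at 8.14 and wild-type 1 at 8.43 (bright), and mdx 1 at 8.46 and wild-type 2 at 10.92 (dim).

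The third comparison asked how the genes differed with the human gene on the mdx background (n = 2 each). Of the members 9 had higher and 1, Fabp4, lower mean values with the gene, and none passed in limma, where 0% of the probe sets did and 215 had an unadjusted p under 0.05. Median differences were 0.44 over the storage genes and 0.51 over the enzymes, against 0.02 over all probe sets. Of all 7453 probe sets kept, 3928 were higher with the gene. Me1 differed by 0.99 ± 0.50 (SE), Lipe by 0.63 ± 0.99, Scd1 by 0.55 ± 0.61, Fasn by 0.48 ± 0.75 and Adipoq by 0.34 ± 1.01. Taking the brightest probe set of each gene, the groups did not overlap for 1 of the 10, Retn, at 6.86 ± 0.22 (SD) against 6.37 ± 0.10, as for 13.9% of all probe sets. On the next probe set of Scd1 they did not overlap either, with 9.69 and 8.79 in hDMD x mdx 1 and 2 and 8.46 and 8.14 in mdx 1 and 2. This comparison shares the mdx arrays with the one before.

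In the single pair of utrophin-deficient mice 7 genes were lower with the human gene. Retn differed by -4.67, Acly by -3.48, Fasn by -2.74, Fabp4 by -2.10, Cidec by -1.94, Lipe by -1.44 and Adipoq by -1.34. Pck1 was 1.11 higher, Scd1 0.21 and Me1 0.15. How many of all probe sets were lower in this pair was not counted. The mouse without the human gene was aged 5 weeks and the one with it 9 weeks. Their arrays had deposited medians of 2.56 and 1.47, with 25.6% and 29.9% of values at or below 0. The test of whether the difference with the human gene depended on utrophin called 0 of 7453 probe sets in limma, while 286 had an unadjusted p under 0.05. It gave -3.73 ± 1.17 (SE) for Acly with an unadjusted p of 0.0155, -3.22 ± 1.3 for Fasn with 0.0426, and an adjusted p of 1.0 for each member in limma.

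**Figure D4:**
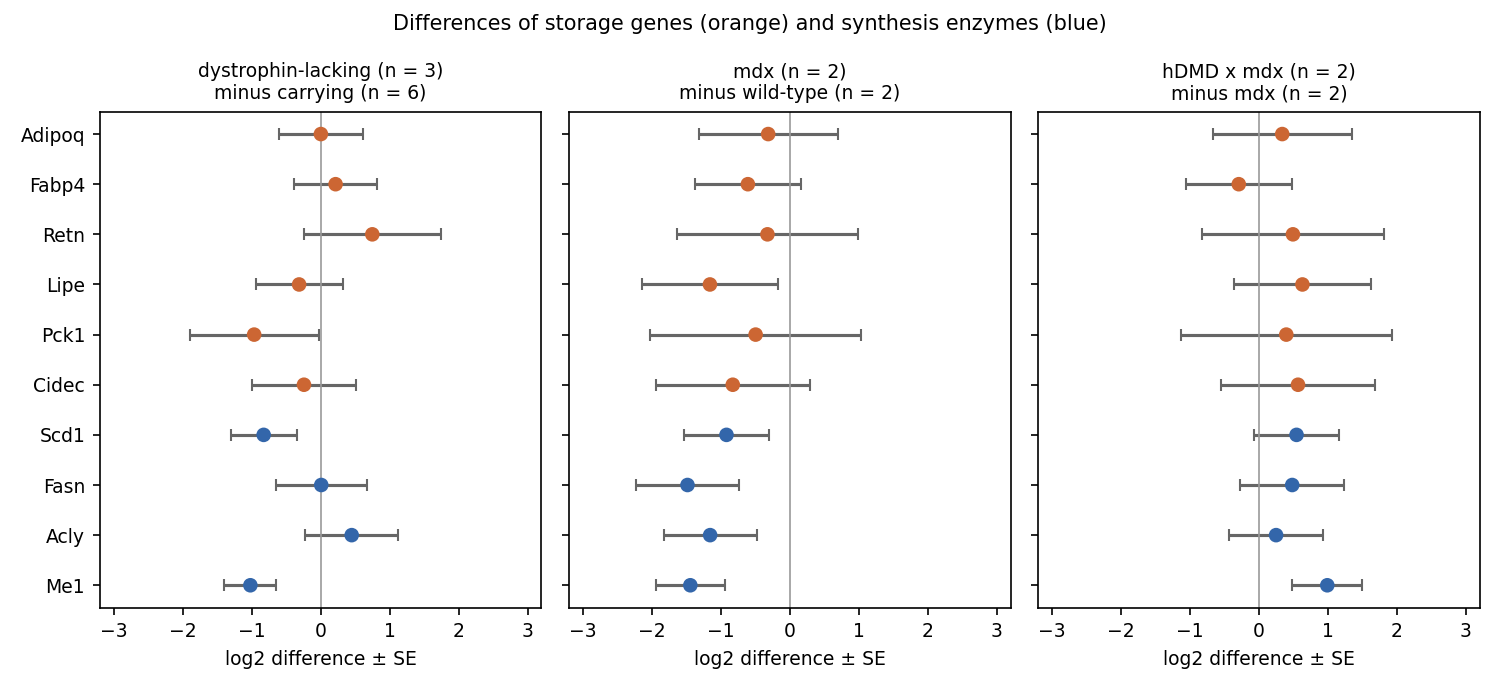
Differences in log2 level with their standard errors for the 6 storage genes and the 4 synthesis enzymes in the 3 comparisons, with 0 as a line. No difference passed the adjusted threshold, and Me1, at -1.02, -1.44 and 0.99, is the gene whose error bars stay clear of 0 by the widest margin.

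Other genes of fat cells and of lipid synthesis came from lists of symbols. Of 30 further fat cell genes 25 were measured and 24 kept, and 0 passed in any of the 3 comparisons in limma. They had lower values in 17 of 24 cases without dystrophin (median -0.17) and in 20 of 24 in mdx against wild-type (-0.42). With the human gene 14 were higher (0.13). The medians over all probe sets were -0.01, 0.00 and 0.02. Of all 7453 kept, 3861 were lower without dystrophin, 3723 lower in mdx and 3928 higher with the human gene.

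Cebpa, a transcription factor of fat cell maturation, was highest in wild-type 2 at 8.97 and lowest in hDMD x mdx x utrn-/- at 5.34. Lipoprotein lipase (Lpl), which muscle and fat cells both make, ranged from 8.50 in mdx 1 to 10.37 in wild-type 2. Cd36, a fatty acid transporter of muscle, fat and macrophages, was between 4.91 and 6.21, and Car3, a carbonic anhydrase abundant in slow muscle and in fat, between 9.80 and 10.91. Plin1, Cfd, Acaca, G6pdx and Dgat2, also on the lists, were not analysed here. Pparg, the receptor that drives fat cell formation, failed the filter, with 5.30 in wild-type 2 and at most 4.56 elsewhere.

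Of 35 further genes of lipid synthesis 22 were measured and 21 kept, and 0 passed in the 3 comparisons in limma. They were evenly divided without dystrophin, 11 higher and 10 lower (median 0.05). In mdx 18 of 21 were lower than in wild-type (-0.49), and with the human gene 15 of 21 were higher (0.30). Over all 7453 probe sets kept, 3723 were lower in mdx and 3928 higher with the human gene. The genes of a list were read on the same few mice, so they are not replicates. The mdx arrays also serve both comparisons. Thrsp, a nuclear protein that promotes lipogenesis, was at 9.61 in mdx x utrn-/- and 9.10 in wild-type 2, against 7.02 to 8.25 on the other 7 arrays. Elovl6, which lengthens palmitate, was at 6.29 in wild-type 2, 5.85 in hDMD x mdx 1 and 4.0, the floor, in mdx 2. Srebf1, the factor that turns on lipogenic genes, ranged from 6.55 in mdx 2 to 7.97 in mdx x utrn-/-, and Scd2, a desaturase of other tissues, from 6.47 in mdx 2 to 8.22 in hDMD x mdx x utrn-/-.

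Markers of other cells moved with the storage genes on some arrays. The list deviation in wild-type 2, as the median over the genes kept, was 0.81 for 13 macrophage genes, 0.83 for 7 lymphocyte genes, 0.88 for 9 fibroblast matrix genes and -1.49 for 8 slow muscle genes. On mdx 1, where the storage genes were low, it was 1.13 for macrophages and -1.35 for slow muscle. In wild-type 1 slow muscle was at 1.11 and macrophages at -0.55.

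All 16 macrophage genes listed were measured, and their summed normalised intensity was 961 to 1710 without and 243 to 1234 with dystrophin, none at the floor on every array. Of 20 lymphocyte genes 16 were measured, with sums of 244 to 282 without and 176 to 808 with dystrophin, and Cd3e, which defines T cells, was at the floor on all 9 arrays. All 8 slow muscle genes were measured, with sums of 838 to 4219 and 761 to 4763. For 9 of 10 fibroblast matrix genes the sums were 2924 to 3537 and 1844 to 4926. The part of these cells in the levels of the storage genes and enzymes was not tested.

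**Figure D5:**
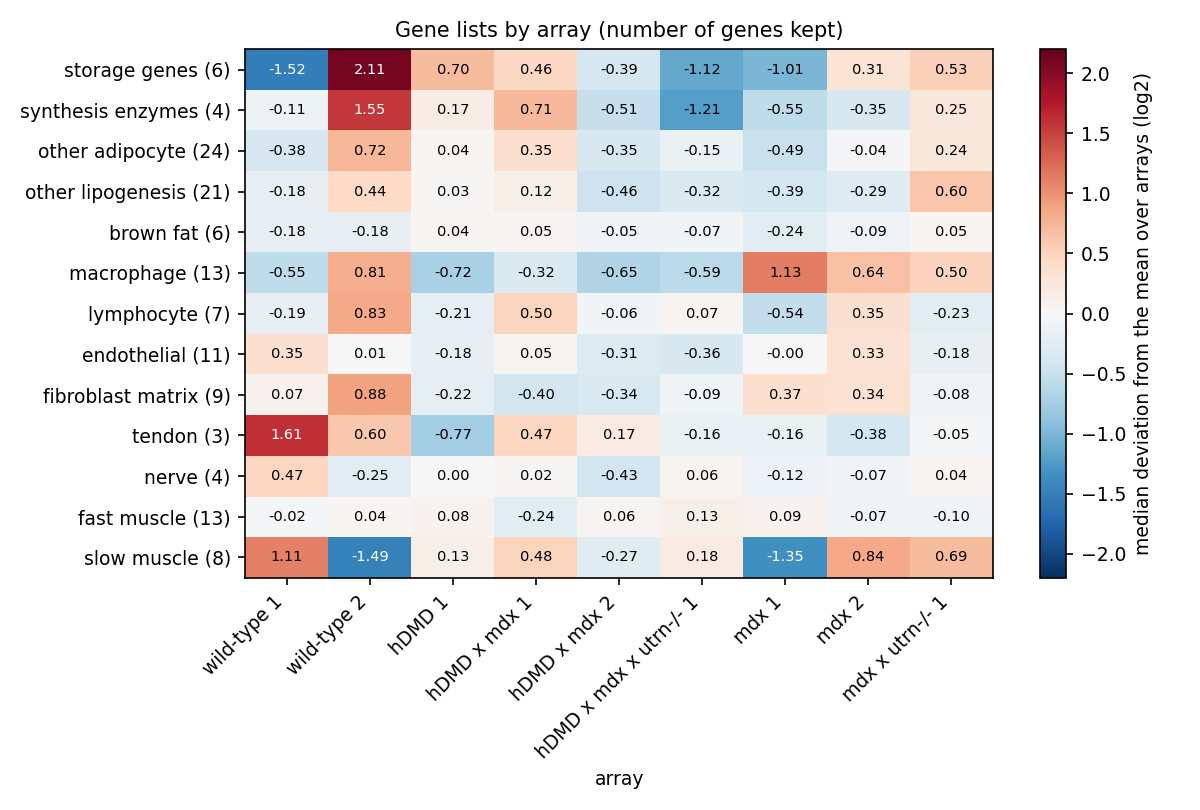
Median deviation (log2) of the genes kept in each list on each array, with the number of genes in brackets. The storage genes run from -1.52 in wild-type 1 to 2.11 in wild-type 2, where slow muscle genes are at -1.49, while fast muscle genes stay between -0.24 and 0.13. Most fast muscle genes are among the brightest, where quantile normalisation holds values alike across arrays.

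The genes outside the 10 whose pattern over the 9 arrays was most like the mean storage deviation were picked by Pearson's r among named probe sets kept, as a description. They were Mgst1 (r = 0.947, and 0.981 over the 6 dim arrays), a glutathione transferase of membranes, Hsd17b12 (0.937 and 0.968), a reductase of fatty acid elongation, and Chpt1 (0.929 and 0.972), which makes phosphatidylcholine. Sgce (0.924 and 0.960), a sarcoglycan, Tmem30a (0.910 and 0.939), a flippase subunit, and Cdo1 (0.905 and 0.908), cysteine dioxygenase, followed. Mgst1 ranged from 5.70 in wild-type 1 to 8.06 in wild-type 2 and Cdo1 from 5.71 in hDMD x mdx x utrn-/- to 8.0 in wild-type 2. Most like the enzymes were Ptpn13 (0.953 and 0.985), a phosphatase that spanned only 4.16 to 4.90, Apmap (0.941 and 0.983), a membrane protein of fat cells, Dpep1 (0.941 and 0.993), a dipeptidase, and Ubqln1 (0.937 and 0.948), a ubiquitin adaptor.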

How the data were processed

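RNA of 9 muscles was hybridised to 1 array each. Per the labels' protocols, Trizol-extracted RNA was copied with a T7-dT24 primer and labelled as biotinylated cRNA. The authors deposited probe set intensities on a linear scale, of which 19.4% to 29.9% per array were at or below 0; the expression measure and software remain not given in the sources used here, and each array's scale factor stays unknown. Array medians of the deposited intensities were 1.47 to 45.6.

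The 66 controls were left out. Intensities of 12422 probe sets were quantile normalised across arrays, set to at least 0, and turned to log2 after adding 16. Probe sets with a mean above the 40th percentile were kept (7453, with 3.12% of values at the floor). Symbols came from the platform annotation, updated through Entrez identifiers: 10817 probe sets were matched, 16 kept an older symbol, 396 had several and 1193 were not listed. The probe set with the highest mean stood for a gene.

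Comparisons were fitted with limma 3.58.1 in R 4.3.3 (lmFit, contrasts.fit, eBayes; two-sided, Benjamini-Hochberg over 7453 probe sets, threshold 0.05), by class or with 1 mean per genotype over all 9 arrays, where the 3 genotypes with 2 mice give the spread and a lone mouse is assumed to vary like those. The fits were tested on simulated data with normal noise of the same spread for every probe set and no floor. That setting differs from genes near the floor or with a wide spread, such as several members. Correlations used exact permutation tests. The number of arrays limits the precision. Members, lists, the rule for named genes (all member probe sets, listed pathway genes, the most alike genes), tests and most alternatives were chosen with earlier results of these data known.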

Additional observations from a re-analysis of the deposited data

How the results depend on the processing

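No paired analysis was possible because the labels give the mice no shared replicate numbers. Array brightness as a block, a technical grouping and no pairing of mice, gave 11, 0 and 0 passing probe sets. No member difference passed in limma under any alternative with a test; the smallest adjusted p was 0.215, for Me1 without dystrophin under that block (-1.02 ± 0.26, SE). Main counts of passing probe sets, 9, 0 and 0, held within 1.5 times in the class comparison except for 2 with no filter, 0 as deposited (12 at an unadjusted p under 0.05) and in the bright arrays alone (645), 1 with a pseudocount of 1 and 4 with the storage deviation as a covariate, and ranged from 2 (without hDMD, hDMD x mdx 2 or mdx x utrn-/-) to 18 (without wild-type 1) with each mouse left out. The counts of 0 stood under every alternative with a test, where 130 and 215 probe sets had an unadjusted p under 0.05 in the main limma fits of mdx against wild-type and of hDMD x mdx against mdx. Analysis of bright arrays alone was added after seeing the data.

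Signs of uncalled member differences turned as follows; the cause was not tested. Without dystrophin: Acly -0.89, Fasn -0.87, Cidec 0.73, Lipe 0.13 and Pck1 1.39 in the bright arrays, Adipoq -0.48 in the dim arrays, Adipoq -0.0778, Fabp4 -0.0294 and Fasn -0.10 as deposited, Adipoq -0.0157 and Fasn -0.00349 with a larger pseudocount, and Adipoq -0.00873 when scaled to the 75th percentile. In mdx against wild-type, bright arrays alone gave 2.01 for Adipoq, 1.68 for Cidec, 0.94 for Fabp4, 0.95 for Lipe, 2.98 for Pck1 and 2.13 for Retn. They gave 0.15 for Scd1 on its brightest probe set. Retn was at 0.0455 as deposited and 0.43 with a pseudocount of 1. In hDMD x mdx against mdx, Acly was at -0.0688 with age as a covariate and -0.71 in the dim arrays, Fasn at -0.30 in the dim arrays and Fabp4 at 0.33 as deposited.

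With each mouse left out, ranges that crossed 0 were, without dystrophin, -0.25 to 0.92 for Acly, -0.285 to 0.52 for Adipoq, -0.60 to 0.25 for Cidec, -0.10 to 0.56 for Fabp4, -0.64 to 0.38 for Fasn, -0.75 to 0.20 for Lipe and -0.13 to 1.27 for Retn. In mdx against wild-type they were -1.84 to 1.22 for Adipoq, -2.71 to 1.06 for Cidec, -1.64 to 0.42 for Fabp4, -2.67 to 0.36 for Lipe, -3.0 to 2.01 for Pck1 and -2.70 to 2.06 for Retn. In hDMD x mdx against mdx they were -0.47 to 0.97 for Acly, -0.45 to 1.12 for Adipoq, -0.0499 to 1.18 for Cidec, -0.92 to 0.33 for Fabp4, -0.33 to 1.29 for Fasn, -0.00896 to 1.27 for Lipe and -0.57 to 1.36 for Pck1.

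Correlation with Adipoq passed as deposited for Acly (r = 0.876), Me1 (0.825) and Scd1 (0.878), where the arrays' scale is shared by all genes, and not for Fasn with a pseudocount of 1 (0.711). As deposited the storage deviation was 3.09 in hDMD x mdx 1, and the enzyme deviation was -0.60 in hDMD, 3.29 and -1.52 in hDMD x mdx 1 and 2, -2.59 in hDMD x mdx x utrn-/-, -1.43 and 1.04 in mdx 1 and 2, -0.61 in mdx x utrn-/- and 1.57 in wild-type 1. Quantile normalisation assumes like distributions on all arrays, and dim genes near the floor have compressed differences.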

Other observations

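Genes of brown fat, the heat-producing kind, were looked at beside the storage genes, and Cidea, Ucp1, Tkt and Pgd were chosen after their values were seen. Cidea, a droplet protein related to Cidec, was at 7.67 in wild-type 2, 7.13 in mdx x utrn-/- and 6.78 in hDMD x mdx 1, and between 4.41 and 5.51 on the other 6 arrays. Ucp1, the uncoupling protein that defines brown fat, stayed between 4.0 and 5.47. The 6 brown fat genes kept had a median deviation of -0.18 in wild-type 2 and 0.05 in mdx x utrn-/-. In wild-type 2 that median covered opposite members. Cidea and Ucp1 were highest there of all arrays. Cox8b, Cox7a1 and Dio2 were lowest there (9.45, 8.26 and 4.27), and Ppargc1a lay between (4.49). Cox8b and Cox7a1 were bright on every array, reaching 10.07 and 9.06, while Ucp1 was dim. The list median is therefore no measure of brown fat, and which cells made these transcripts was not tested. Transketolase (Tkt), of the pathway that makes NADPH from glucose, was at 9.22 in wild-type 2 and 8.98 in mdx x utrn-/-, against 4.68 to 8.06 on the other 7 arrays. Phosphogluconate dehydrogenase (Pgd), of the same pathway, was at 7.51 in mdx x utrn-/-, 7.06 in wild-type 2 and 6.42 in mdx 1.

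Age had no detectable relation with any of the 10 genes over the 9 arrays, with Pearson's r from -0.15 for Retn to 0.30 for Scd1, Spearman's rho from -0.32 for Acly to 0.38 for Pck1, and the smallest adjusted exact p, over 10 relations, 0.987 for r and 0.854 for rho. Within the 6 dim arrays r ran from -0.68 for Lipe to 0.02 for Scd1 (smallest adjusted exact p 0.516). Without the oldest mouse and mdx 1, r ran from -0.67 for Acly to 0.38 for Pck1. These relations were computed after seeing the data.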
